A study of Mus musculus with 14 samples.

Results

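Slc17a7, Slc17a6, Tbr1, Cux2, Rorb, Fezf2, Neurod2 and Neurod6, markers of cortical and thalamic glutamatergic neurons, were followed in mouse brain hemispheres after stroke. They were chosen by symbol and are 8 of the 46904 genes in the expression table. The libraries came from Cort+/+ mice and from Cort-/- mice, which lack the cortistatin gene in all cells and were kept on a C57BL/6J background. At 12 weeks of age the left middle cerebral artery was closed with a filament for 20 min (middle cerebral artery occlusion, MCAO) and then reopened, and polyA RNA was sequenced from whole hemispheres 48 h later. The contralateral hemisphere (CL) and the ischemic hemisphere (MCAO) gave 3 CL and 3 MCAO libraries in Cort+/+ mice and 3 CL and 5 MCAO libraries in Cort-/- mice. All mice were operated, under isoflurane with meloxicam for analgesia, so CL is the uninjured side of a stroke brain and not a sham brain. Whole hemispheres mix cortex, hippocampus, striatum, thalamus and deeper regions, so the RNA of a gene is averaged over all of them.

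Glutamatergic projection neurons arise from the embryonic pallium, where proneural factors of the Neurod family carry progenitors towards neurons and layer-specific transcription factors then fix their targets. Mature cells load glutamate into synaptic vesicles with Slc17a7 (VGLUT1) in cortex and hippocampus or with Slc17a6 (VGLUT2), which is the main transporter of thalamus, hypothalamus and brainstem and is weak in most adult cortical neurons. The striatum holds almost no glutamatergic cell bodies, and the filament model injures it first, so these genes mark neurons other than the first to be injured.

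The transporters are paralogs, and reads from one could in principle be counted on the other. Their coding sequences in the GENCODE annotation of the GRCm39 genome, 1746 bases for Slc17a6 and 1680 bases for Slc17a7, were therefore compared, and the longest identical run was 21 bases. It is shown as the longest stretch without a mismatch between the pair, with the identical bases in capitals and the sequence written 5′ to 3′ on the coding strand. It lies in exon 2 of both genes. The printed stretches, flanks included, are at chr7:51275206-51275234 in Slc17a6 and at chr7:44818316-44818344 in Slc17a7, both on the plus strand.
Slc17a6: ctgtAACCTGGGCGTGGCCATCGTGgaca
Slc17a7: ctgcAACCTGGGCGTGGCCATCGTGtcca
None of the 1647 windows of 100 bases, the length of a read, in the Slc17a6 coding sequence occurs in that of Slc17a7. For Neurod2 and Neurod6 the longest identical coding run was 11 bases, and none of 1050 such windows was shared. Only exact matches between coding sequences were compared. Untranslated regions and matches with mismatches were not, so miscounted reads are not excluded.

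Values are RPKM, read counts divided by the length of the gene and the size of the library, which allows levels of different genes to be compared. Between 25991590 and 43035762 reads per library were recovered from the values, and the members held between 636 reads (the lowest library of Fezf2) and 53237 reads (the highest of Slc17a7). Cort itself had 0 to 4 reads in the 8 Cort-/- libraries and 64 to 139 reads in the 6 Cort+/+ libraries, which matches the genotype labels. Slc17a7 had by far the highest level, with a mean of 370 RPKM over the 14 libraries. Neurod6 (23.9 RPKM), Tbr1 (22.6 RPKM), Neurod2 (22.5 RPKM), Slc17a6 (16.7 RPKM) and Cux2 (11.1 RPKM) followed, and in this stretch the ranges of neighbouring genes over libraries overlapped. Fezf2 had a mean of 7.83 RPKM and Rorb of 4.28 RPKM, and neither range overlapped with the gene above it. The library with the highest level exceeded the lowest by 1.24-fold for Cux2 and 1.27-fold for Slc17a7, the steadiest genes, and by 1.84-fold for Slc17a6, the most variable.

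**Figure D1:**
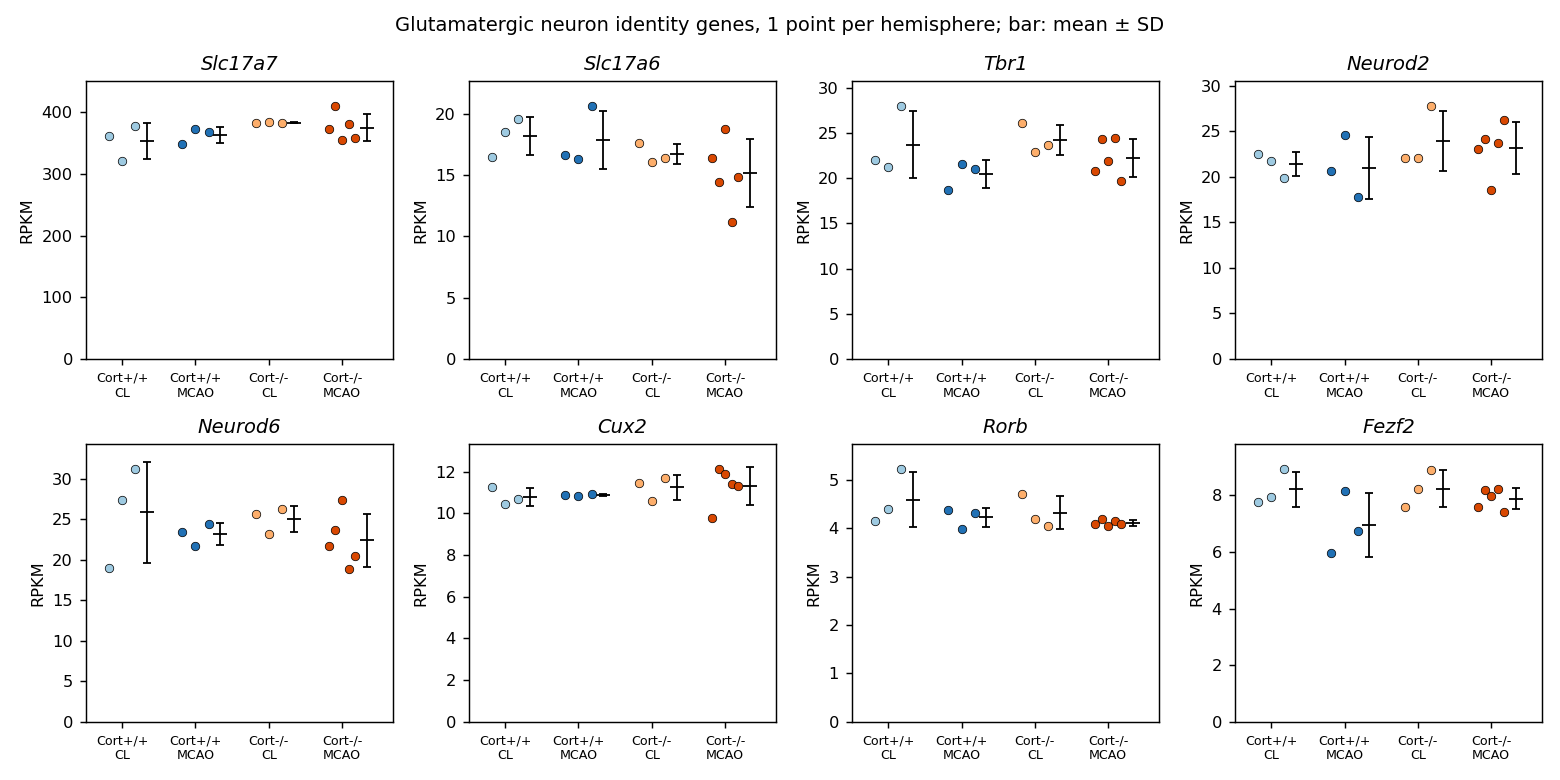
RPKM of each identity gene (y axis, from 0) in each hemisphere, by genotype and hemisphere (x axis). Points are single hemispheres and the bars give the mean ± SD of 3 (Cort-/- MCAO: 5) hemispheres. In every panel the ranges of the CL and MCAO points of the same genotype overlap.

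The first question was whether the ischemic hemisphere differed from the contralateral one. No member passed the test in either genotype. In Cort+/+ mice 0 of 8 passed an adjusted p of 0.05, where 0.0108% of all genes tested did. Among Cort-/- mice 0 of 8 passed, where 1.72% of all genes did, and for the difference averaged over the genotypes 0 of 8 passed, where 3.43% did (limma, Benjamini-Hochberg adjustment over 46102 genes). At an unadjusted p under 0.05 the counts were 1 of 8 in Cort+/+ mice (7.87% of all genes), 0 of 8 in Cort-/- mice (12.7% of all genes) and 2 of 8 on average (14.9% of all genes). The MCAO and CL groups overlapped for all 8 members in both genotypes, while they did not overlap for 9.84% of all genes in Cort+/+ mice and for 9.11% in Cort-/- mice. In bulk tissue, fewer cells of a type and less RNA per cell cannot be told apart.

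Slc17a7 (chr7:44813305-44825644, plus strand), the vesicular transporter of cortical and hippocampal projection neurons, was the most tightly measured. In Cort+/+ mice the CL hemispheres had 362, 322 and 378 RPKM and the MCAO hemispheres 349, 373 and 368 RPKM. Cort-/- mice had 382, 384 and 383 RPKM in CL and 372, 410, 355, 381 and 358 RPKM in MCAO hemispheres. Within each genotype the MCAO values lay on both sides of the CL mean. On the log2(RPKM + 0.1) scale, which all differences below share, MCAO minus CL was 0.040 (SE 0.067) in Cort+/+ mice and -0.031 (SE 0.060) in Cort-/- mice. Averaged over genotypes, the ratio of MCAO to CL was 1.00 with a 95% interval of 0.937 to 1.07.

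Slc17a6 (chr7:51271434-51320867, plus strand), the transporter of thalamic and other subcortical projection neurons, varied more. In Cort+/+ mice it had 16.5, 18.6 and 19.6 RPKM in CL and 16.7, 16.3 and 20.6 RPKM in MCAO hemispheres. Cort-/- mice had 17.6, 16.1 and 16.4 RPKM in CL and 16.4, 14.5, 18.8, 11.2 and 14.9 RPKM in MCAO hemispheres. The lowest library of all was replicate 4 of the Cort-/- MCAO group, and the third replicate of that group was above all CL hemispheres of its genotype. MCAO minus CL was -0.033 (SE 0.15) in Cort+/+ mice and -0.16 (SE 0.13) in Cort-/- mice, and the latter was -0.057 without replicate 4. That library also had the lowest mean over 6 genes of hypothalamus and midbrain (2.32 as mean log2 value, against 2.84 to 3.82 in the other 13) and the lowest mean over 11 genes of thalamic neurons (1.61, against 1.71 to 2.14). The thalamic mean was not low in replicate 4 only. It was 1.92, 1.76, 2.03, 1.61 and 1.71 in the Cort-/- MCAO hemispheres and 1.99 to 2.06 in the CL hemispheres of that genotype. The part of tissue composition in the Slc17a6 levels was not tested.

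Tbr1 (chr2:61633274-61644458, plus strand), a T-box factor of deep-layer and newborn glutamatergic neurons, had 22.0, 21.2 and 27.96 RPKM in CL and 18.7, 21.6 and 21.1 RPKM in MCAO hemispheres of Cort+/+ mice. Its levels in Cort-/- mice were 26.1, 22.9 and 23.7 RPKM in CL and 20.8, 24.3, 22.0, 24.4 and 19.7 RPKM in MCAO hemispheres. The lowest values were on the MCAO side in both genotypes, but the groups overlapped. Tbr1 and Fezf2 had the lowest adjusted p of the members for the averaged difference, which was -0.17 for Tbr1 (SE 0.073, adjusted p = 0.303, limma). Without replicate 3 of the Cort+/+ CL group, its highest library, the difference was -0.10.

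Neurod2 and Neurod6, basic helix-loop-helix factors that stay on in mature pallial projection neurons, were spread within every group. Neurod2 (chr11:98216241-98220480, minus strand) had 22.5, 21.7 and 19.9 RPKM in CL and 20.7, 24.5 and 17.7 RPKM in MCAO hemispheres of Cort+/+ mice. It had 22.1, 22.0 and 27.7 RPKM in CL and 23.0, 24.1, 18.6, 23.7 and 26.3 RPKM in MCAO hemispheres of Cort-/- mice, so no side was consistently higher. MCAO minus CL for Neurod2 was -0.038 (SE 0.14) in Cort+/+ and -0.051 (SE 0.12) in Cort-/- mice. Neurod6 (chr6:55654807-55658326, minus strand) had 19.0, 27.4 and 31.2 RPKM in CL and 23.4, 21.7 and 24.4 RPKM in MCAO hemispheres of Cort+/+ mice. The Cort-/- mice had 25.6, 23.2 and 26.3 RPKM in CL and 21.7, 23.6, 27.4, 18.8 and 20.4 RPKM in MCAO hemispheres. The CL hemispheres of Cort+/+ mice held both the highest value of Neurod6 and one of the lowest, and its differences were -0.13 (SE 0.16) in Cort+/+ and -0.17 (SE 0.14) in Cort-/- mice. The Cort+/+ value was 0.021 without replicate 3 of the CL group.

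Of the upper-layer genes, Cux2 had the narrowest range of the members. Cux2 (chr5:121994429-122188521, minus strand), a homeobox factor of layers 2 to 4, had 11.3, 10.4 and 10.7 RPKM in CL and 10.9, 10.8 and 10.9 RPKM in MCAO hemispheres of Cort+/+ mice. Cort-/- mice gave 11.5, 10.6 and 11.7 RPKM in CL and 9.78, 12.1, 11.9, 11.4 and 11.3 RPKM in MCAO hemispheres. MCAO minus CL was 0.0099 (SE 0.072) in Cort+/+ and 0.0053 (SE 0.064) in Cort-/- mice, and the averaged ratio was 1.01 with a 95% interval of 0.935 to 1.08. Rorb (chr19:18907969-19088585, minus strand), an orphan nuclear receptor of layer 4 that is also present in thalamus, had 4.14, 4.40 and 5.22 RPKM in CL and 4.37, 3.99 and 4.30 RPKM in MCAO hemispheres of Cort+/+ mice. Rorb in Cort-/- mice had 4.71, 4.20 and 4.05 RPKM in CL, while the MCAO hemispheres lay between 4.05 and 4.19 RPKM. The MCAO hemispheres were thus the narrower group in both genotypes. Rorb differed by -0.11 (SE 0.083) in Cort+/+ and -0.067 (SE 0.074) in Cort-/- mice.

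Fezf2 (chr14:10121574-10127680, plus strand), the zinc finger factor that specifies subcerebral projection neurons of layer 5, had 7.78, 7.93 and 8.94 RPKM in CL and 5.95, 8.17 and 6.74 RPKM in MCAO hemispheres of Cort+/+ mice. Fezf2 in Cort-/- mice had 7.58, 8.24 and 8.91 RPKM in CL and 7.59, 8.19, 7.99, 8.24 and 7.41 RPKM in MCAO hemispheres. The lowest pair of values came from Cort+/+ MCAO hemispheres, but the third hemisphere of that group was inside the CL range. In Cort+/+ mice MCAO minus CL was -0.25 (SE 0.10, 95% interval -0.47 to -0.028, adjusted p = 0.563, limma), and without replicate 2 of the MCAO group it was -0.14. In Cort-/- mice it was -0.062 (SE 0.090), and the response of Cort-/- minus that of Cort+/+ mice was 0.19 (SE 0.14, adjusted p = 1, limma).

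**Figure D2:**
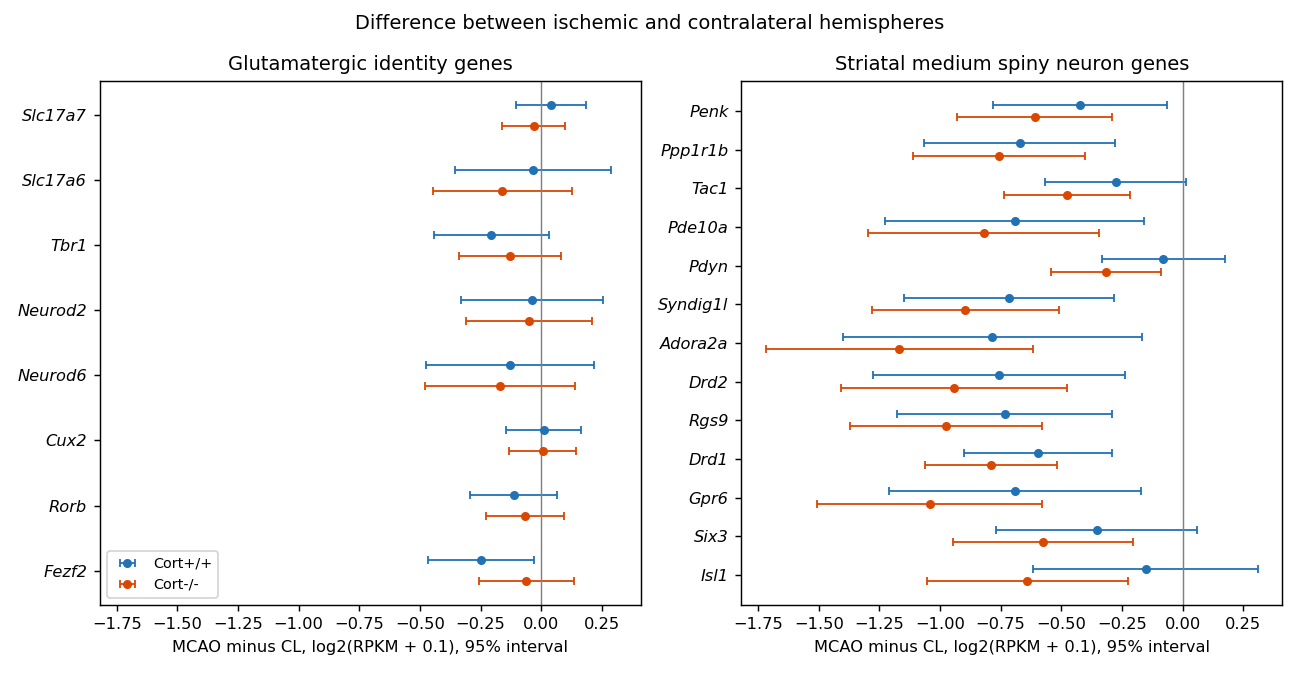
MCAO minus CL in log2(RPKM + 0.1) (x axis, same scale in both panels) with 95% intervals from limma, for the identity genes (left) and genes of striatal medium spiny neurons (right), in Cort+/+ (blue) and Cort-/- (orange) mice. Every interval of an identity gene except that of Fezf2 in Cort+/+ mice includes 0, whereas the plotted differences of the striatal genes lie below 0, and the medians over the whole list of 14 are -0.68 and -0.80.

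The members were set beside 14 genes of striatal medium spiny neurons, the GABAergic projection neurons of the region where this lesion starts. Over the 8 members the median difference was -0.075 in Cort+/+ mice, -0.065 in Cort-/- mice and -0.093 averaged over genotypes. Over the 15063 genes that averaged 1 RPKM or more it was -0.016, -0.034 and -0.025. Over the striatal genes it was -0.68, -0.80 and -0.74, and the lowest limit of any member's averaged interval was -0.38, for Neurod6. Of the striatal genes 0 of 14 passed in Cort+/+ mice, 8 of 14 fell in Cort-/- mice (0.382% of all genes fell) and 11 of 14 fell on average (0.902% of all genes fell). With 1 library left out the Cort-/- count was 0 to 11, lowest without replicate 1 of the CL group (0), replicate 3 of the CL group or replicate 4 of the MCAO group (1 each) and replicate 2 of the CL group (2), and it was 0 in a fit of the Cort-/- libraries alone, while the median over the list lay between -0.93 and -0.72 in all 28 alternative settings. Adora2a, an adenosine receptor of these neurons, had 15.9 to 19.0 RPKM in CL and 6.75 to 15.8 RPKM in MCAO hemispheres of Cort+/+ mice, and 16.0 to 18.1 RPKM in CL and 4.67 to 10.6 RPKM in MCAO hemispheres of Cort-/- mice. It fell by 0.98 on average, and Gpr6 and Rgs9, which encode signalling proteins of the same neurons, fell by 0.87 and 0.86. In each hemisphere the mean log2 value of the members was then set against that of the striatal genes. The excess of the members was 0.11 to 0.26 in the CL and 0.27 to 1.03 in the MCAO hemispheres of Cort+/+ mice, and 0.22 to 0.31 in the CL and 0.70 to 1.25 in the MCAO hemispheres of Cort-/- mice. The same difference against 12 pan-neuronal genes ran from -2.63 to -2.57 in CL and -2.69 to -2.46 in MCAO hemispheres of Cort+/+ mice, and from -2.54 to -2.49 in CL and -2.59 to -2.45 in MCAO hemispheres of Cort-/- mice.

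**Figure D3:**
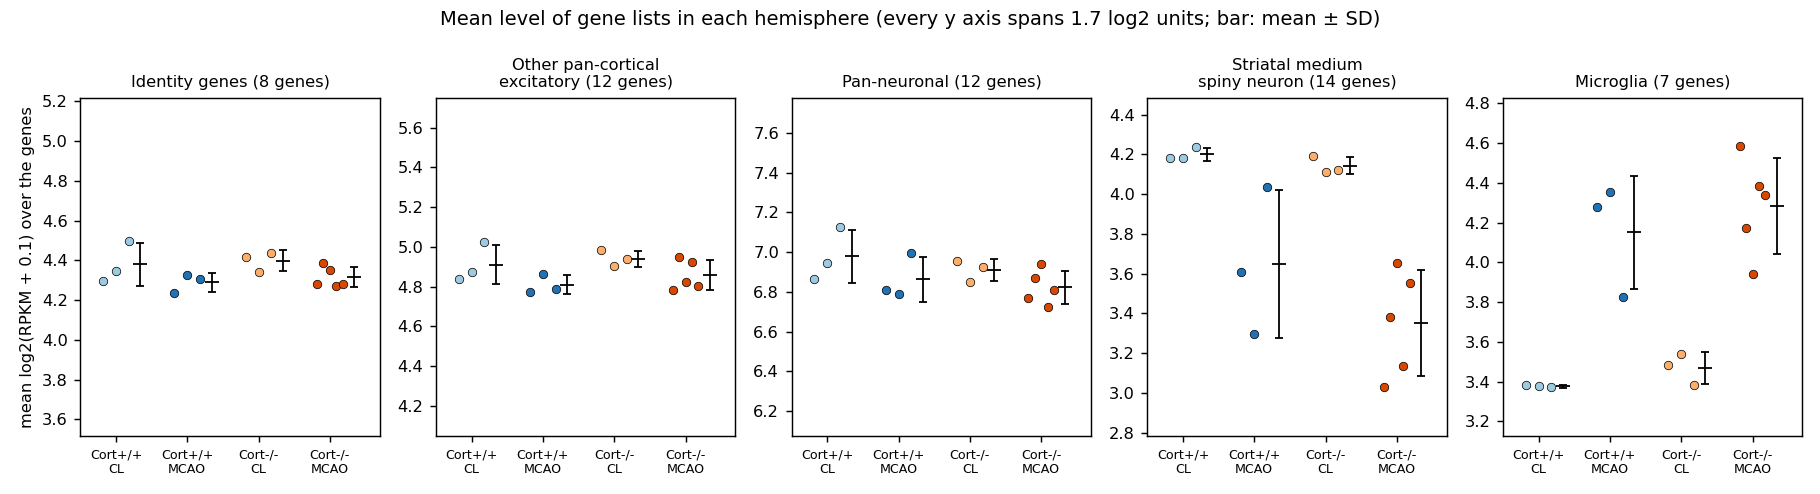
Mean log2(RPKM + 0.1) of 5 gene lists (y axes, each spanning the same 1.7 log2 units) in each hemisphere, by genotype and hemisphere (x axis), with the mean ± SD. The identity genes, the other pan-cortical genes and the pan-neuronal genes overlap between CL and MCAO hemispheres of a genotype, while the striatal list is lower and the microglial list higher in every MCAO hemisphere.

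Further genes of excitatory neurons were read from lists by region and layer. Of 12 further pan-cortical excitatory genes, Camk2a fell in Cort-/- mice (-0.29, SE 0.065, adjusted p = 0.047, limma), and Camk2a and Lmo3 fell on average (-0.25 and -0.20), while the other 10 did not pass in any comparison of the hemispheres. Camk2a, the alpha subunit of the synaptic kinase CaMKII, had 491 to 566 RPKM in CL and 448 to 468 RPKM in MCAO hemispheres of Cort+/+ mice, and 521 to 550 RPKM and 386 to 471 RPKM in Cort-/- mice. No gene of this list passed in Cort-/- mice in 20 of 28 alternative settings, whereas for the averaged difference none passed in only 2 of 27. Among 10 layer 5 genes Bcl11b fell in Cort-/- mice and on average (-0.48 and -0.42), and among 10 layer 6 genes Foxp2 fell on average (-0.40, adjusted p = 0.021, limma). No layer 5 gene was called in Cort-/- mice in 13 of 28 alternative settings, and Foxp2 was not called on average without replicate 1 of the Cort-/- CL group, replicate 3 of the Cort+/+ CL group, or replicate 2 or 3 of the Cort+/+ MCAO group. For the averaged difference no layer 5 gene was called in 2 of 27 alternative settings and no layer 6 gene in 6. Bcl11b and Foxp2 are transcription factors that striatal medium spiny neurons also express, and Camk2a is present in those neurons as well. The part of striatal neurons in the falls of Camk2a, Lmo3, Bcl11b and Foxp2 was not tested. None of 10 upper-layer genes, 10 hippocampal genes, 11 thalamic genes or 10 genes of glutamate supply and uptake passed in any comparison of the hemispheres. Over the thalamic genes the median difference was -0.022 in Cort+/+ and -0.24 in Cort-/- mice, where 9 were below 0 and 2 above. The Cort-/- median lay between -0.28 and -0.17 in all 28 alternative settings. In MCAO hemispheres all 11 thalamic genes were lower in Cort-/- than in Cort+/+ mice, with a median of -0.17 and 0 called. The upper-layer genes with the highest levels were Lamp5 and Rasgrf2, with averaged differences of -0.16 and -0.10. All 10 upper-layer genes had averaged differences below 0, from -0.36 to -0.026, and the lowest in Cort-/- mice was -0.50. For the averaged difference no upper-layer gene was called in 25 of 27 alternative settings and no thalamic gene in 26. No hippocampal gene was called on average in 23 of them and no gene of glutamate supply in 22. In the group of glutamate supply, Glul, the astrocytic glutamine synthetase, differed by -0.12 and Slc1a2, the main glial glutamate transporter, by -0.17.

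Markers of other cells passed the test in Cort-/- mice and on average, where no member did. In Cort+/+ mice no gene of the microglial, astrocyte, infiltrating myeloid or endothelial lists was called. Of 7 microglial genes 5 rose in Cort-/- mice (1.34% of all genes rose) and 6 on average (2.52% of all genes rose), with Trem2 at 1.20 and Aif1 at 1.12 on average. The Cort-/- count of microglial genes was 0 without replicate 1 or 3 of the CL group, while the averaged count was 6 without any 1 library. The summed level of the 7 genes was 96.9 to 107 RPKM in CL and 132 to 207 RPKM in MCAO hemispheres of Cort+/+ mice, and 97.9 to 115 RPKM and 150 to 232 RPKM in Cort-/- mice. Of 7 astrocyte genes 4 rose on average, led by Gfap at 1.84, and of 7 genes of infiltrating myeloid cells 4 rose, led by Lgals3 at 3.39. Among 6 endothelial genes Cldn5 and Cdh5 rose by 0.43 and 0.40 on average, and neither was called in 10 of 27 alternative settings. None of 10 interneuron genes, 12 pan-neuronal genes or 7 oligodendrocyte genes passed, nor did any from the lists of choroid plexus, cerebellum, hypothalamus and midbrain, hindbrain and olfactory bulb. For the averaged difference no interneuron gene was called in 26 of 27 alternative settings, no oligodendrocyte gene in 25 and no pan-neuronal gene in 21. The summed members ranged over 433 to 501 RPKM in CL and 450 to 480 RPKM in MCAO hemispheres of Cort+/+ mice, and over 491 to 501 RPKM and 462 to 521 RPKM in Cort-/- mice. The part of the added glial and myeloid RNA in the small negative medians of the members was not tested.

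The second question was whether the absence of cortistatin went with another level of these genes. No member differed between genotypes in CL hemispheres (0 of 8, with 0.0152% of all genes called), in MCAO hemispheres (0 of 8, with 0.0174% called) or in the size of the response to MCAO (0 of 8, with 0.00217% called). At an unadjusted p under 0.05 the counts were 0 of 8 in each, against 3.91% of all genes in CL hemispheres, 3.82% in MCAO hemispheres and 3.31% for the response. In CL hemispheres Slc17a7 was the only member whose genotype groups did not overlap, 322 to 378 RPKM in Cort+/+ against 382 to 384 RPKM in Cort-/- mice, which was the case for 6.25% of all genes. Its difference was 0.12 (SE 0.067, adjusted p = 1, limma) and was 0.049 without replicate 2 of the Cort+/+ group. In MCAO hemispheres all 8 members overlapped between genotypes, where 2.42% of all genes did not. Cort-/- minus Cort+/+ was largest for Slc17a6, at -0.25 (SE 0.13, adjusted p = 1, limma), and for Fezf2, at 0.19 (SE 0.090, adjusted p = 1, limma). The Slc17a6 value was -0.15 without replicate 4 of the Cort-/- group and -0.14 without replicate 4 of the Cort+/+ group.

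The balance of the transporters was tested directly as Slc17a6 per 100 RPKM of Slc17a7, which does not depend on how a library is scaled. It was 5.17 ± 0.61 (SD, n = 3) in CL and 4.92 ± 0.63 (SD, n = 3) in MCAO hemispheres of Cort+/+ mice, and 4.36 ± 0.22 (SD, n = 3) and 4.06 ± 0.89 (SD, n = 5) in Cort-/- mice. The Cort-/- MCAO hemispheres held both the lowest value of the genotype, 2.93, and its highest, 5.29. On the log2 scale MCAO minus CL was -0.073 in Cort+/+ mice (exact two-sided permutation p = 0.7) and -0.13 in Cort-/- mice (exact permutation p = 0.536). Cort-/- minus Cort+/+ was -0.24 in CL (exact permutation p = 0.2) and -0.30 in MCAO hemispheres (exact permutation p = 0.214). After adjustment over the 4 comparisons the values were 0.429 or 0.7, and the smallest p the design allows is 0.1 for 3 against 3 and 0.0179 for 3 against 5 hemispheres.

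**Figure D4:**
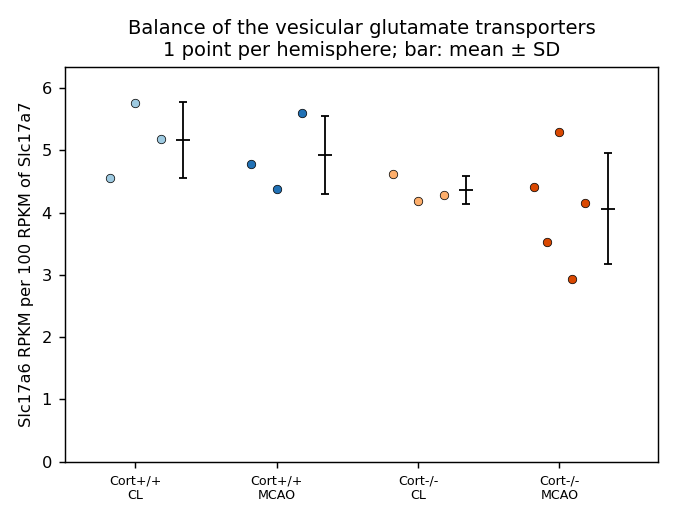
Slc17a6 RPKM per 100 RPKM of Slc17a7 (y axis, from 0) in each hemisphere by genotype and hemisphere (x axis), with the mean ± SD. The groups overlap, and the lowest point, 2.93, is a Cort-/- MCAO hemisphere.

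The members did not vary as a block. After the group means were removed, Pearson's r over the 14 hemispheres was 0.74 for Slc17a7 with Tbr1, 0.71 for Slc17a6 with Neurod6, 0.60 for Tbr1 with Rorb and 0.57 for Tbr1 with Fezf2. It was -0.62 for Slc17a6 with Neurod2 and -0.49 for Neurod2 with Neurod6. None of these values was tested. Cux2 followed no other member closely, with values from -0.11 to 0.32. These correlations describe 14 hemispheres that share library scaling and tissue mixture, and genes of a library are not independent.

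**Figure D5:**
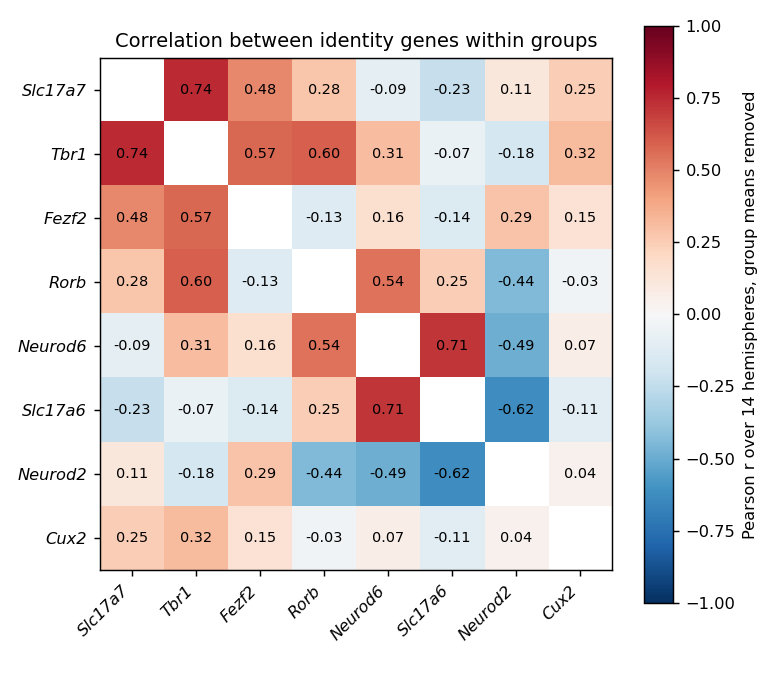
Pearson's r between the log2(RPKM + 0.1) values of each pair of identity genes over 14 hemispheres, with group means removed. Slc17a7 and Tbr1 (0.74) and Slc17a6 and Neurod6 (0.71) run together, and Slc17a6 and Neurod2 (-0.62) run apart.

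Among the 15063 genes that averaged 1 RPKM or more, the 3 whose log2 values followed each member most closely over the 14 hemispheres were named, by Pearson's r. For Tbr1 these were Mef2c (r = 0.96), a transcription factor of cortical excitatory neurons, Rbfox3 (0.92), which encodes the neuronal antigen NeuN, and Nck2 (0.91). Fezf2 was most like Pou3f1 (0.80), a POU factor of layer 5 neurons, followed by Dkk3 (0.78) and Foxj3 (0.77). Slc17a7 was followed by Fscn1 (0.92), Hk1 (0.90) and Ubxn6 (0.82), and Slc17a6 by Rit2 (0.95), Paip2 (0.93) and Rnf128 (0.92). For Neurod6 the genes were Necab1 (0.94), Lnpk (0.93) and Tmem68 (0.92), and for Neurod2 they were Iffo2 (0.92), Trafd1 (0.90) and Ralgds (0.90). Rorb was most like Sec62 (0.91), Septin7 (0.89) and Nudt4 (0.89), and Cux2 most like Kcnh5 (0.87), Prpf8 (0.85) and Gm55386 (0.85). With so many genes searched, values of this size are a description of these libraries only.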

How the data were processed

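The authors aligned stranded paired-end reads of polyA RNA to GRCm39 with reanalyzerGSE and deposited RPKM values for each of 14 libraries, without pooling. Gene lengths and library scaling are not given in the sources used here. Library sizes and lengths that turn each gene's values into whole reads were searched for, and 495656 of 495656 values above 0 (100%) came out whole within 0.0001 reads. No pair of libraries from the same group agreed within sampling noise, and pairs across groups were not compared. The methods state that replicates were independent, with 5 for MCAO, and that only clearly grouped ones were kept, so the spread within groups may be understated. The Cort+/+ MCAO libraries were replicates 2, 3 and 4 only, while the Cort-/- MCAO libraries were replicates 1 to 5.

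Genes above 0 in at least 2 libraries (46102 of 46904) were tested with limma 3.58.1 on log2(RPKM + 0.1), with 1 model of the 4 groups and moderated variances with trend. A call is a Benjamini-Hochberg adjusted p under 0.05 over these genes. The transporter ratio was tested by exact permutation. Scripts were tested on simulated data. The members and gene lists were chosen with earlier results of these data known. Named genes are all members, from each other list up to 4 genes that passed with the largest change, or the 2 of highest level where none passed, and the 3 genes most correlated with each member (values are given for a selection of these, and 1 gene, counted in the totals of its list, is not reported here). Alternatives covered the pseudocount (1 and 0.01), filters, scaling, variance model, voom on the recovered reads, replicate blocks and each library left out. Sequences and positions are from GENCODE M39.

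Same-numbered hemispheres are not stated to come from 1 animal.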

Additional observations from a re-analysis of the deposited data

How the results depend on the processing

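The count of members called was 0 in all 6 comparisons under all 28 alternative settings that could be run, 14 of which leave out 1 library, and the lowest adjusted p of any member was 0.0841 (limma, averaged MCAO minus CL). Over all genes the calls moved more. For MCAO minus CL in Cort+/+ mice they were 5 against 0 to 160, in Cort-/- mice 792 against 0 to 1290, and averaged 1579 against 0 to 2180. For the genotypes they were 7 against 4 to 90 in CL and 8 against 4 to 40 in MCAO hemispheres, and for the interaction 1 against 0 to 16. Voom on the recovered reads called 39, 1255 and 2061 genes for MCAO minus CL in Cort+/+, in Cort-/- and averaged. Rescaling moved the median of genes of at least 1 RPKM by less than 0.1.

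The r of deviations between same-numbered hemispheres was 0.32 and -0.14 in Cort+/+ mice, and -0.064, -0.24 and 0.027 in Cort-/- mice. Between different-numbered ones it ran from -0.18 to 0.27 in Cort+/+ and from -0.32 to 0.40 in Cort-/- mice. Deviations from the means of so few hemispheres cannot settle whether the numbers pair them, and the main fit did not pair the hemispheres. A replicate block over both genotypes left 238 genes called on average, a replicate block of genotype and number 0, and neither called a member. With the block over both genotypes the sign changed for Slc17a6 (0.020) and Cux2 (-0.011) in Cort+/+ mice, Cux2 in Cort-/- mice (-0.0026) and averaged (-0.0067), Neurod6 between genotypes in MCAO hemispheres (0.015), and Cux2 (0.0082) and Neurod6 (0.034) in the interaction. With the block of genotype and number it changed for Neurod2 in Cort+/+ mice (0.11), Cux2 in Cort-/- mice (-0.0025), and Slc17a6 (0.19) and Neurod6 (0.33) in the interaction. Under a replicate block of same-numbered pairs the log2 transporter ratio differed by -0.26 and -0.0027 between hemispheres of Cort+/+ and Cort-/- mice, and by -0.24 and -0.37 between genotypes in CL and MCAO hemispheres.

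Of 1312 member differences under the alternatives 1248 kept the sign of the reported value and 64, all uncalled, did not. Between genotypes in CL hemispheres the sign changed for Neurod6 under TPM (0.040) and for Fezf2 under library weights (-0.016) and voom (-0.0013), and in MCAO hemispheres for Rorb under TPM (0.020). In the interaction it changed for Cux2 under median ratios (0.0044) and quantile normalization (0.0015), and for Neurod6 under library weights (0.0068). With 1 library left out, signs changed for the following. For MCAO minus CL in Cort+/+ mice Slc17a7 ranged from -0.027 to 0.089, Slc17a6 from -0.14 to 0.029, Cux2 from -0.015 to 0.041, Neurod2 from -0.16 to 0.076, Neurod6 from -0.34 to 0.021 and the log2 transporter ratio from -0.17 to 0.0095. In Cort-/- mice Cux2 ranged from -0.038 to 0.056 and Neurod2 from -0.11 to 0.059, and averaged over genotypes Slc17a7 from -0.029 to 0.029, Cux2 from -0.014 to 0.033 and Neurod2 from -0.10 to 0.013. Between genotypes in CL hemispheres Tbr1 ranged from -0.035 to 0.16, Rorb from -0.15 to 0.013, Fezf2 from -0.053 to 0.065 and Neurod6 from -0.23 to 0.13, and in MCAO hemispheres Neurod6 from -0.13 to 0.0014. In the interaction Tbr1 ranged from -0.045 to 0.15, Cux2 from -0.047 to 0.046, Rorb from -0.049 to 0.11, Neurod2 from -0.13 to 0.11 and Neurod6 from -0.19 to 0.17. The cause of these changes was not tested.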
